A study of Sus scrofa with 12 samples.

Results

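The 8 genes examined here belong to branched-chain amino acid and propionate breakdown. They are IVD, MCCC2, ACADSB, ACAT1, ALDH6A1, MMUT, ECHDC1 and ACSS3, and were followed through RNA-Seq libraries of back subcutaneous fat and longissimus dorsi (LD) muscle from Dingyuan pigs. They were found by the Ensembl identifiers that the study's gene and protein lists give for them, and all 8 of 8 were among the 31903 identifiers of the expression table. The animals were unmated sows of a native Chinese breed with much fat, 300 days old by the labels. Fat was divided into a group with low backfat thickness (LBF) and a group with high backfat thickness (HBF), and LD muscle into low intramuscular fat (LIMF) and high intramuscular fat (HIMF), with 3 libraries per group and 12 in all. No genotype or treatment separated the groups, which share breed, sex and feeding, and the labels do not say which libraries came from the same pig. Each library is bulk RNA of a whole tissue piece, so fewer cells of a type and less RNA per cell cannot be told apart in any value below.

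Leucine, isoleucine and valine lose their amino group to a branched-chain aminotransferase, and the resulting ketoacids are decarboxylated in the mitochondria by the branched-chain ketoacid dehydrogenase complex. The products then part into separate arms. The leucine arm ends in acetyl-CoA and acetoacetate, the valine arm in propionyl-CoA, and the isoleucine arm in acetyl-CoA and propionyl-CoA, and propionyl-CoA is carboxylated and rearranged to succinyl-CoA. Adipocytes and skeletal muscle both break down these amino acids, and in adipocytes the acetyl-CoA can enter fatty acid synthesis.

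Within this scheme IVD (isovaleryl-CoA dehydrogenase) and MCCC2 (the beta subunit of methylcrotonyl-CoA carboxylase) act on leucine. ACADSB (short/branched-chain acyl-CoA dehydrogenase) and ACAT1 (mitochondrial acetyl-CoA acetyltransferase, a thiolase that also acts on ketone bodies) act on isoleucine. ALDH6A1 (methylmalonate semialdehyde dehydrogenase) serves valine. MMUT (methylmalonyl-CoA mutase) forms succinyl-CoA, ECHDC1 (ethylmalonyl-CoA decarboxylase) removes a faulty product of carboxylases, and ACSS3 is an acyl-CoA synthetase that activates propionate. In the RefSeq annotation of Sscrofa11.1, IVD (ENSSSCG00000004774) lies on chromosome 1 from 130896488 to 130910582 and ECHDC1 (ENSSSCG00000004216) on the same chromosome from 35852939 to 35909314. MCCC2 (ENSSSCG00000016971) lies on chromosome 16 from 47917308 to 47996540. ACADSB (ENSSSCG00000010723) lies on chromosome 14 from 132563002 to 132607574. ACAT1 (ENSSSCG00000026153) lies on chromosome 9 from 36525266 to 36545634. ALDH6A1 (ENSSSCG00000002357) lies on chromosome 7 from 97360583 to 97381885, and MMUT (ENSSSCG00000001732) on the same chromosome from 43597313 to 43624603. ACSS3 (ENSSSCG00000000939) lies on chromosome 5 from 100272255 to 100429229. These spans cover exons and introns of the whole genes.

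Levels are FPKM, the fragments of a gene scaled to the length of its transcripts and to the mapped fragments of the library, which allows genes to be compared per length but no longer shows the reads behind a value, so the depth of a value is unknown here. The table summed to between 420982 and 517796 FPKM per library. The tissue labels were checked against summed marker genes. The 6 adipocyte markers summed to 7571 to 12284 FPKM in fat and 76.5 to 177.9 FPKM in muscle. The 11 muscle markers summed to 2449 to 19481 FPKM in muscle and 11.9 to 201.5 FPKM in fat. LBF replicate 3 held the 201.5 FPKM, with 106.9 FPKM of ACTA1 and 47.7 FPKM of CKM, while every other fat library was under 0.7 FPKM for both. ACTA1 was listed at 0 in the 3 LIMF libraries and in HIMF replicate 1, and CKM in LIMF replicates 2 and 3, so a listed 0 in muscle need not mean absence. None of the 8 breakdown genes was listed at 0 in any library, and their levels ran from 1.24 to 357.3 FPKM.

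In back fat, all 8 genes had a lower mean in HBF than in LBF, and for every gene the 3 HBF libraries lay below the 3 LBF libraries. The study listed 7 of the 8 genes from these same fat libraries. Its fat protein list held 5 of the 8, MMUT from that list alone. The 4 in both lists, IVD, MCCC2, ACAT1 and ALDH6A1, were lower in HBF as RNA and as protein by the study. It also measured ACAT1 by RT-qPCR and reported the same trend. Proteins and RT-qPCR used the same samples as the libraries. The difference in fat is therefore described here and is no independent evidence of its direction. Under limma on log2(FPKM + 0.1), with Benjamini-Hochberg adjustment over all 16239 genes tested, 0 of the 8 genes were called, and the background of genes called was 0%. A call needed an adjusted p under 0.01 and a difference of 1 or more on the log2 scale in either direction. The study set the same limits, and its own test, DESeq2, listed 7 of the 8. The limma fit on FPKM called 0 of all 16239 genes tested, so the lack of a call does not set the 8 apart. At an unadjusted p under 0.05 all 8 were lower, where the background of genes lower was 4.22%. The background of genes lower with no overlap of the groups was 6.46%. Nothing is read from these shares, since the fat libraries chose the genes. The exact permutation test gave p = 0.1 for each gene, the smallest value that 20 relabellings of 3 against 3 libraries allow.

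In the leucine arm, IVD measured 55.5, 43.6 and 74.6 FPKM in LBF and 17.3, 20.5 and 28.9 FPKM in HBF. The means were 57.9 ± 15.7 FPKM (SD, n = 3) and 22.2 ± 6.02 FPKM (SD, n = 3), a log2 fold change of -1.37 ± 0.26 (SE) with an adjusted p of 0.213 by limma. MCCC2 measured 85.1, 95.9 and 67.3 FPKM in LBF and 31.3, 48.2 and 33.2 FPKM in HBF, a log2 fold change of -1.15 ± 0.21 (SE). The highest HBF value of either gene lay well under the lowest LBF value, which for IVD was 43.6 FPKM against 28.9 FPKM.

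In the isoleucine arm, ACADSB measured 70.3, 48.6 and 45.2 FPKM in LBF and 23.0, 27.1 and 25.9 FPKM in HBF. The HBF libraries were close together, with an SD of 2.09 FPKM against 13.6 FPKM in LBF, and the log2 fold change was -1.08 ± 0.19 (SE). ACAT1 was the most abundant of the 8 genes in fat, with 101.6, 133.8 and 107.2 FPKM in LBF and 52.3, 65.1 and 65.2 FPKM in HBF. Its log2 fold change of -0.90 ± 0.16 (SE) stayed under the fold limit of 1. In the valine arm, ALDH6A1 measured 61.8, 58.6 and 41.9 FPKM in LBF and 15.9, 32.1 and 28.7 FPKM in HBF, a log2 fold change of -1.12 ± 0.29 (SE). Here HBF replicate 1 was the lowest, at 15.9 FPKM, and the gap between the groups lay between 41.9 FPKM in LBF and 32.1 FPKM in HBF.

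Among the propionate genes, MMUT measured 24.3, 30.7 and 28.5 FPKM in LBF and 16.5, 13.1 and 18.2 FPKM in HBF. This was the smallest difference of the 8, a log2 fold change of -0.81 ± 0.17 (SE), 1.75-fold higher in LBF by the means. ECHDC1 measured 86.7, 67.8 and 57.1 FPKM in LBF and 24.2, 30.5 and 27.97 FPKM in HBF. Its log2 fold change was -1.34 ± 0.18 (SE) with an adjusted p of 0.154 by limma, the lowest among the 8 genes and at rank 13 of all genes tested by p. ACSS3, the least abundant of the 8, measured 12.2, 17.3 and 14.3 FPKM in LBF and 3.83, 7.84 and 8.51 FPKM in HBF, a log2 fold change of -1.17 ± 0.31 (SE). HBF replicate 1 held the lowest HBF value for 7 of the 8 genes, all but MMUT, while no LBF library held the lowest LBF value for more than 4.

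**Figure D1:**
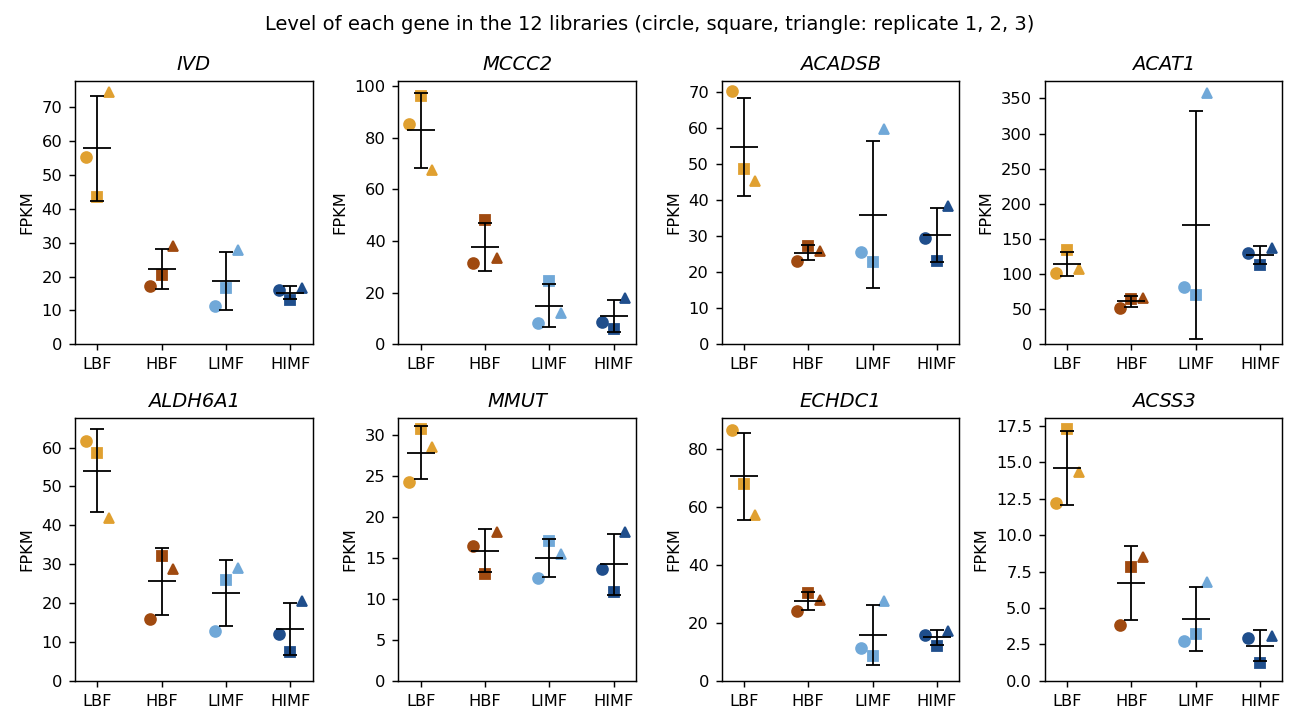
FPKM of each gene in the 12 libraries by group, with the mean and SD of 3 libraries as a dash and bar, each axis from 0. In every panel the HBF points lie below the LBF points, while LIMF and HIMF overlap, with LIMF replicate 3 (triangle) at 357.3 FPKM for ACAT1.

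Some markers of other cell types differed between the fat groups. The marker lists were chosen with earlier results of these data known, so their counts are descriptions in both tissues. The 7 leukocyte markers summed to 41.7 to 204.8 FPKM in LBF and 217.6 to 240.8 FPKM in HBF, and 3 of the 7 were higher in HBF with no overlap. PTPRC and CD68 were among those that overlapped. The 7 vessel markers summed to 142.6 to 277.5 FPKM in LBF and 267.1 to 426.9 FPKM in HBF, and 5 of the 7 were higher with no overlap. These 5 also had an unadjusted p under 0.05 by limma, where 9.36% of all genes were higher. PECAM1 and CDH5 overlapped. The 8 stroma markers summed to 1293 to 3608 FPKM in LBF and 826.2 to 1886 FPKM in HBF, with 2 of the 8 lower and no overlap. COL1A1, DCN and PDGFRA overlapped, and 6.46% of all genes were lower with no overlap. The adipocyte sums overlapped, with LEP higher and LPL lower in HBF and no overlap, and with PLIN1, a coat protein of lipid droplets, at 511.3 to 655.5 FPKM in LBF and 567.8 to 873.0 FPKM in HBF. For LPL the study gives the opposite direction, higher in HBF. The 11 muscle markers summed to 25.0, 22.0 and 201.5 FPKM in LBF and 11.9 to 15.2 FPKM in HBF, so every LBF library lay above the HBF libraries, and 5 of the 11, among them ACTN2, CASQ1, ANKRD2 and TXLNB, were lower in HBF with no overlap. The part of these markers in the difference of the 8 genes was not tested. Without LBF replicate 3, which had the highest muscle marker sum, the 8 log2 fold changes ran from -1.48 to -0.79. All 8 stayed at an unadjusted p under 0.05, where 4.01% of all genes were lower. Without LBF replicate 1, which had the lowest leukocyte sum, they ran from -1.39 to -0.89, again with all 8 (3.83% of all genes). Neither fit removed the marker differences. The muscle sums left in LBF, 25.0 and 22.0 FPKM, still lay above 15.2 FPKM. The leukocyte sums left in LBF, 93.9 and 204.8 FPKM, still lay under 217.6 FPKM.

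The other enzymes of the route were read from a list of 38 genes, of which 37 were in the table. In fat, 28 of the 37 had a log2 fold change below 0, where the background of all genes was 39.6%. At an unadjusted p under 0.05, 20 of the 37 were lower in HBF and 2 were higher (background of genes 4.22% lower and 9.36% higher), and 22 were lower with no overlap of the groups (background 6.46%). The median log2 fold change of the 37 was -0.46, and that of all genes 0.09. The study's own fat lists held 11 of the 37. Among the 26 that they did not hold, 11 were lower and 0 higher at an unadjusted p under 0.05, with 13 lower without overlap and a median of -0.38. Without LBF replicate 3 the counts over the 37 were 18 lower and 3 higher, where the background was 4.01% lower and 10.4% higher. The genes of the whole table that passed an unadjusted p under 0.05 in fat lay higher in HBF in 68.9% of cases, and the share was 49.0% under median-of-ratios scaling, 47.2% under quantile normalization and 44.1% at equal total FPKM.

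The differences were spread over most steps of the route. At the entry, 5 of 8 genes were lower in HBF at an unadjusted p under 0.05. BCKDHB, the beta subunit of the first component of the ketoacid dehydrogenase, measured 14.8 to 32.3 FPKM in LBF and 8.05 to 8.75 FPKM in HBF, a log2 fold change of -1.38 ± 0.27 (SE). Its partner BCKDHA measured 91.7 to 151.8 FPKM in LBF and 71.8 to 86.8 FPKM in HBF, with -0.65 ± 0.20 (SE). BCAT2, the mitochondrial aminotransferase, had a log2 fold change of -0.43. These 3 genes did not overlap between the groups.

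In the leucine arm, AUH and MCCC1 were lower at an unadjusted p under 0.05, with log2 fold changes of -0.65 for AUH, the hydratase after MCCC, and -0.58 for MCCC1, the alpha subunit of MCCC. In the isoleucine arm 3 of 5 were lower. ECHS1, a short-chain enoyl-CoA hydratase, measured 207.4, 213.4 and 167.3 FPKM in LBF and 87.6, 66.4 and 135.5 FPKM in HBF, a log2 fold change of -1.08 ± 0.27 (SE). HADHA and HADHB, the subunits of the trifunctional protein of long-chain fatty acid oxidation, had -0.06 and -0.31, both at an unadjusted p above 0.05, and HADHA overlapped between the groups. In the valine arm 1 of 2 was lower, with -0.42 for HIBCH, a hydrolase, and -0.59 for HIBADH, a dehydrogenase whose groups overlapped.

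Of the 5 other propionate genes, 3 were lower at an unadjusted p under 0.05. PCCA and PCCB, the subunits of propionyl-CoA carboxylase, had log2 fold changes of -0.92 and -0.49, and MCEE, the epimerase before MMUT, had -0.79. The succinyl-CoA ligase genes, which act on the end product, were lower in 2 of 3, with -0.64 for SUCLG2, -0.46 for SUCLG1 and -0.33 for SUCLA2. The 8 neighbouring enzymes of short-chain acyl-CoA and acetoacetate were divided, with 2 lower and 1 higher. AACS, a cytosolic synthetase that activates acetoacetate, measured 41.7, 33.1 and 33.2 FPKM in LBF and 5.35, 9.75 and 8.52 FPKM in HBF, 4.57-fold higher in LBF by the means. Its log2 fold change was -2.21, and limma gave an adjusted p of 0.128. ACSS1, a mitochondrial acetyl-CoA synthetase, went the other way, with 3.58 to 6.57 FPKM in LBF and 10.3 to 15.02 FPKM in HBF. Among the carriers, SLC7A5, which takes up large neutral amino acids, was at 0.26 to 0.58 FPKM in LBF and 0.83 to 1.43 FPKM in HBF, and SLC43A1 at 0.41 to 0.74 FPKM in LBF and 0.21 to 0.24 FPKM in HBF.

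**Figure D2:**
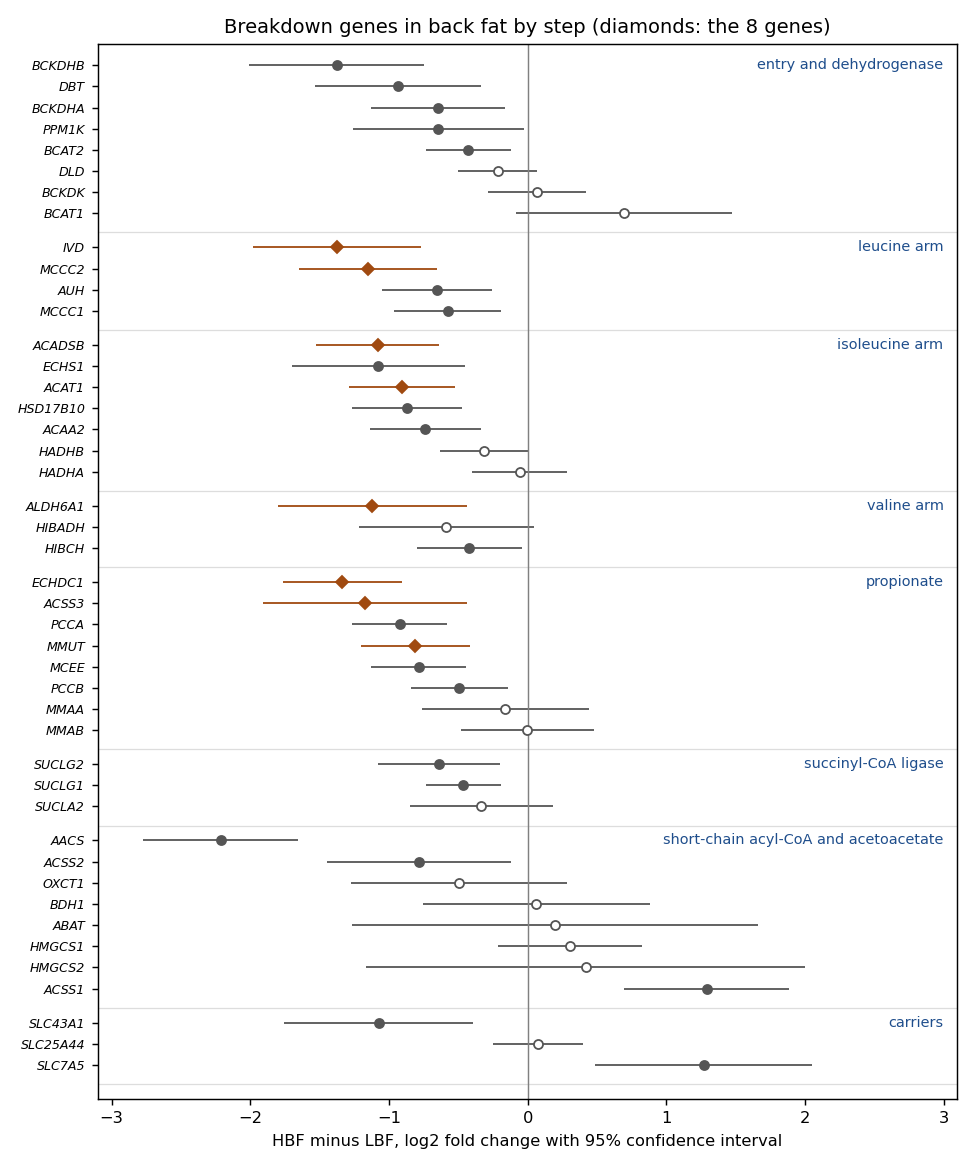
Log2 fold change of HBF minus LBF with its 95% confidence interval for the 8 genes (diamonds) and 36 other genes (circles), grouped by step, with filled symbols at an unadjusted p under 0.05. Filled symbols lie left of 0 in each block, and the 2 to the right of 0 are ACSS1 and SLC7A5.

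In LD muscle, no difference between HIMF and LIMF passed the test. The study had set its fat and muscle lists against each other before it named candidates for back fat alone, ACADSB, ACAT1, ALDH6A1, ECHDC1 and ACSS3 among them, so the muscle values are described here and are not independent of the choice of genes. All 8 genes overlapped between the groups, where 12.7% of all genes did not overlap in either direction. The background of genes called was 0% of 14292 tested, 0 of the 8 genes were called, and 0 of 8 reached an unadjusted p under 0.05 in either direction, where the background of genes was 2.52% lower and 4.51% higher. Adjusted p-values by limma ran from 0.754 to 0.9999, and exact permutation p-values from 0.2 to 1.0. The log2 fold changes ran from -0.79 to 0.10, with a median of -0.17 against 0.04 over all genes. The genes of the whole table that passed an unadjusted p under 0.05 in muscle lay higher in HIMF in 64.1% of cases as deposited, 54.9% under median-of-ratios scaling, 57.9% under quantile normalization and 24.25% at equal total FPKM, where the median of all genes was -0.14 and all 8 genes were below 0.

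The muscle intervals were wide. ALDH6A1 measured 12.9, 25.8 and 29.0 FPKM in LIMF and 12.1, 7.35 and 20.7 FPKM in HIMF, a log2 fold change of -0.79 with a 95% confidence interval from -1.79 to 0.21. ACSS3 measured 2.76, 3.19 and 6.76 FPKM in LIMF and 2.97, 1.24 and 3.08 FPKM in HIMF, with -0.77 and an interval from -1.81 to 0.27. For IVD the muscle interval ran from -0.95 to 0.54, for MMUT from -0.66 to 0.46, for ECHDC1 from -0.86 to 1.05, and for ACADSB from -1.02 to 0.75. For MCCC2 the interval ran from -1.61 to 0.67 and for ACAT1 from -1.32 to 1.31. With 1 library left out, the log2 fold change of ALDH6A1 ran from -1.17 (without HIMF replicate 3) to -0.43 (without HIMF replicate 2), that of ACSS3 from -1.01 (without LIMF replicate 1) to -0.36 (without HIMF replicate 2) and that of MCCC2 from -0.91 (without HIMF replicate 3) to -0.04 (without LIMF replicate 2).

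LIMF replicate 3 held the highest LIMF value for 6 of the 8 genes. ACAT1 measured 81.2, 69.9 and 357.3 FPKM in LIMF and 130.1, 112.2 and 137.4 FPKM in HIMF. ACADSB measured 25.5, 22.9 and 59.6 FPKM in LIMF and 29.6, 23.2 and 38.2 FPKM in HIMF. ECHDC1 measured 11.4, 8.48 and 27.6 FPKM in LIMF and 15.8, 12.03 and 17.2 FPKM in HIMF. In the same library HADHB reached 890.1 FPKM, against 142.9 and 205.4 FPKM in the other LIMF libraries, and HADHA 298.6 FPKM against 105.3 and 122.4 FPKM. Without LIMF replicate 3, the log2 fold change of ACAT1 went from -0.01 to 0.74, that of ACADSB from -0.14 to 0.30, that of IVD from -0.20 to 0.14 and that of ECHDC1 from 0.10 to 0.59. ACAT1 and ECHDC1 were then higher in HIMF at an unadjusted p under 0.05, with adjusted p-values of 0.194 and 0.345 by limma, and 9.44% of all genes were higher by the same limit and 4.53% lower.

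In HIMF the same libraries held the extremes. HIMF replicate 3 held the highest HIMF value for all 8 genes and HIMF replicate 2 the lowest for all 8. For MMUT these values were 18.1 FPKM and 10.8 FPKM, and for MCCC2 17.9 FPKM and 5.85 FPKM. MMUT varied little in muscle, with 12.5, 17.1 and 15.4 FPKM in LIMF, and IVD stood at 11.4, 16.7 and 27.96 FPKM in LIMF and 16.004, 13.1 and 16.6 FPKM in HIMF. Markers of adipocytes and of muscle fibres differed between the muscle groups in both directions. The adipocyte markers summed to 116.3 to 177.9 FPKM in LIMF and 76.5 to 124.6 FPKM in HIMF, sums of which LPL, a lipase that muscle also makes, held 76.3 to 135.6 FPKM in LIMF and 21.6 to 67.0 FPKM in HIMF. For LPL the study gives the opposite direction in muscle too, though not at its limit. By the values here LPL was the 1 of the 6 that was lower in HIMF with no overlap, while 3 of the 6 were higher with no overlap. These were ADIPOQ, at 1.31 to 6.46 FPKM in LIMF and 8.36 to 21.8 FPKM in HIMF, PLIN1, at 0.34 to 1.70 FPKM and 2.71 to 4.90 FPKM, and LEP, at 0.031 to 0.099 FPKM and 0.35 to 0.45 FPKM, with log2 fold changes of 1.90, 1.98 and 1.71. Of the 11 muscle markers, 2, CASQ1 among them, were higher in HIMF with no overlap and 4 (ACTN2, LMOD2, ANKRD2 and XIRP1) were lower, with -2.50 for ANKRD2 and -2.57 for XIRP1. The leukocyte, vessel and stroma sums overlapped, and the part of these markers in the values of the 8 genes was not tested. Of the 36 other genes of the route tested in muscle, 1 was lower and 1 higher in HIMF at an unadjusted p under 0.05. BDH1, which interconverts ketone bodies, measured 10.8, 8.32 and 3.73 FPKM in LIMF and 1.60, 1.24 and 3.59 FPKM in HIMF. SLC7A5 measured 3.05, 2.24 and 2.70 FPKM in LIMF and 8.53, 7.94 and 7.75 FPKM in HIMF. Without LIMF replicate 3 the counts were 3 lower and 6 higher among 35 tested, beside the 4.53% and 9.44% of all genes.

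**Figure D3:**
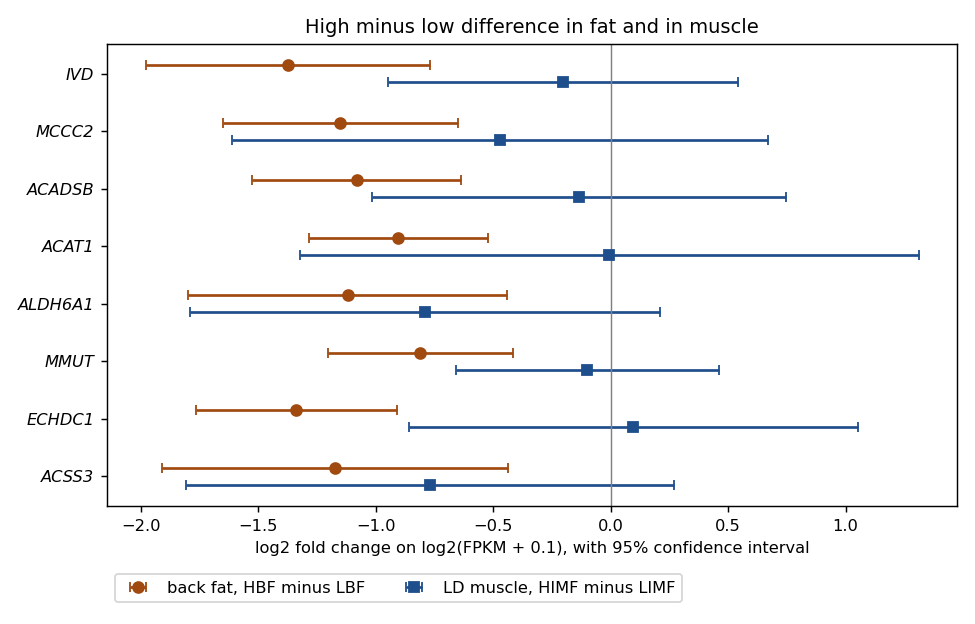
Log2 fold change on log2(FPKM + 0.1) with its 95% confidence interval for back fat (HBF minus LBF, circles) and LD muscle (HIMF minus LIMF, squares). The fat intervals of all 8 genes lie below 0 and the muscle intervals of all 8 include 0.

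A further contrast took the high-low difference in fat minus that in muscle, fitted over the 12 libraries, and so shares the libraries that chose the genes. It was below 0 for all 8 genes, from -1.43 for ECHDC1 to -0.33 for ALDH6A1, where the background of genes below 0 was 44.9%. At an adjusted p under 0.05, 0 of the 8 genes and 0 of the 15965 genes tested passed by limma, a background of 0%. At an unadjusted p under 0.05, 3 of the 8 were lower, ECHDC1 at -1.43 ± 0.50 (SE), IVD at -1.17 ± 0.44 (SE) and MMUT at -0.71 ± 0.30 (SE), where the background of genes lower was 4.46%. The smallest adjusted p among the 8 was 0.397 by limma, and the exact permutation p over 400 relabellings was 0.06 for ECHDC1, 0.14 for IVD and 0.12 for MMUT. This contrast depended on LIMF replicate 3. Without it, 118 genes passed, among them ECHDC1 at -1.93 and ACAT1 at -1.65, each with an adjusted p of 0.0322 by limma, and 5 of the 8 genes were lower at an unadjusted p under 0.05, where the background was 8.43%. Without LBF replicate 3, 1 of the 8 was lower by the same limit, where the background was 4.02%. Among the 36 other genes of the route tested, 6 were lower and 2 higher at an unadjusted p under 0.05 (background of genes higher 5.74%), with AACS at -1.72 and BCKDHB at -1.56.

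Between the tissues, the order of the genes by level differed. In LBF the order of the means was ACAT1, MCCC2, ECHDC1, IVD, ACADSB, ALDH6A1, MMUT and ACSS3, from 114.2 to 14.6 FPKM. ACAT1 stood above MCCC2 with no overlap, and the 5 genes from MCCC2 to ALDH6A1 overlapped their neighbours. MMUT and ACSS3 each lay below the gene before them with no overlap. In HBF the means ran from 60.8 to 6.73 FPKM, with ACAT1, MCCC2 and ECHDC1 again first and not overlapping each other. MMUT and ACSS3 were again last, and MMUT overlapped IVD, the gene before it. In muscle ACAT1 was again first, at 148.0 ± 106 FPKM (SD, n = 6), and ACADSB was second, at 33.1 ± 14.2 FPKM (SD, n = 6). MCCC2 was seventh, at 12.9 ± 7.05 FPKM (SD, n = 6), and the genes from ACADSB to ACSS3 overlapped their neighbours over the 6 muscle libraries as a set.

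By the deposited FPKM, 5 of the 8 genes were called lower in muscle than in fat and 0 higher. The background was 56.4% of 15965 genes called, with 47.1% called lower and 9.29% called higher, and the median log2 difference of all genes was -0.97. MCCC2 had the largest difference, -2.25 ± 0.30 (SE) with an adjusted p of 2.25e-05 by limma, and was the only one of the 8 genes whose tissues did not overlap (49.3% of all genes were lower in muscle with no overlap), at 31.3 to 95.9 FPKM in fat and 5.85 to 24.5 FPKM in muscle. ACSS3 (-1.66), ECHDC1 (-1.60), ALDH6A1 (-1.16) and IVD (-1.10) were also called. MMUT had -0.53, under the fold limit, and ACADSB -0.24, with an adjusted p of 0.350. ACAT1 had 0.61, with an adjusted p of 0.110. The exact permutation test of 6 against 6 libraries gave p = 0.00216 for MCCC2, the smallest value it allows, 0.00433 for ECHDC1 and ACSS3, and 0.147 for ACAT1.

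These directions depended on how libraries were scaled. Median-of-ratios scaling brought the median of all genes to -0.15 and quantile normalization to -0.06. The calls among the 8 genes went from 5 to 2 under each, where 47.8% and 42.4% of all genes were called. MCCC2 was called lower in muscle under both, at -1.21 and -1.84. ECHDC1, at -0.56 and -1.19, was called under quantile normalization alone, and ACSS3, at -0.64 and -0.74, under neither. IVD came to -0.06 and -0.69 and ALDH6A1 to -0.11 and -0.74, and neither was called under either scaling. With the deposited scaling, calls were also lost without LIMF replicate 1, where 3 of the 8 genes and 55.1% of all genes were called (IVD at -0.95 and ALDH6A1 at -0.98 were not). Without HBF replicate 3, 4 of the 8 and 56.1% of all genes were called (IVD at -0.999 was not), and without HIMF replicate 2, 4 and 55.1% (ALDH6A1 at -0.97 was not). Without a filter on expression, 4 of the 8 and 26.7% of 31903 genes were called, and ALDH6A1, at -1.16, had an adjusted p of 0.0168 by limma. ACADSB turned to 0.80 and 0.09, and MMUT to 0.51 under median-of-ratios scaling. ACAT1 was higher in muscle under every scaling, 1.66 under median-of-ratios scaling and 0.73 under quantile normalization, and was called under the first, where it and MCCC2 were the 2 genes called. The genes of the whole table that passed an unadjusted p under 0.05 lay higher in muscle in 19.7% of cases as deposited, 46.1% under median-of-ratios scaling and 48.5% under quantile normalization. A rank within each library does not depend on its scale. Among the 15965 genes, MCCC2 stood at percentiles 89.2 to 96.9 in fat and 71.8 to 89.5 in muscle, ACAT1 at 93.3 to 97.8 in fat and 95.9 to 99.1 in muscle, and MMUT at 76.1 to 90.1 in fat and 80.6 to 86.4 in muscle.

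**Figure D4:**
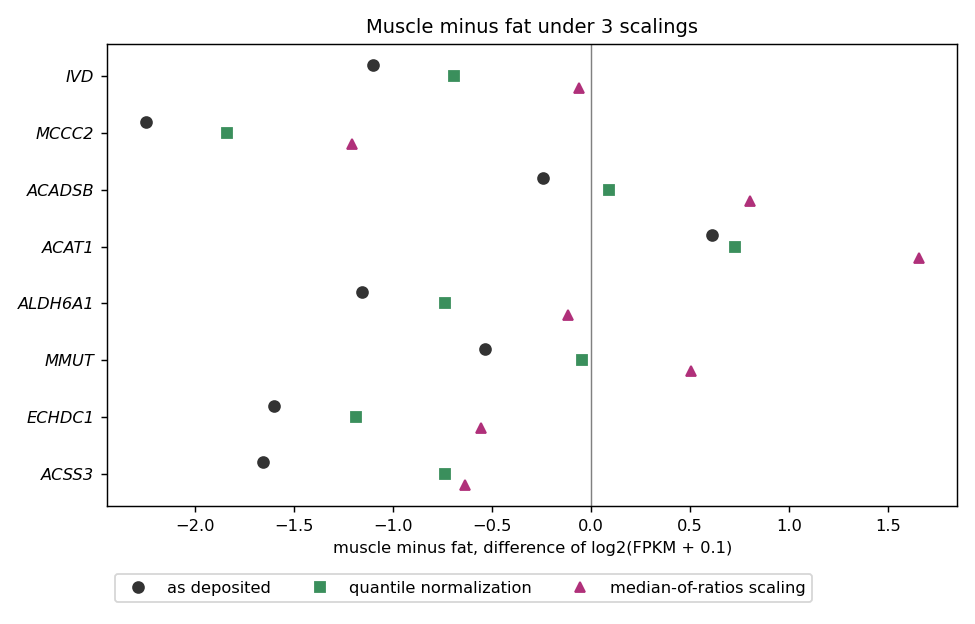
Difference of log2(FPKM + 0.1), muscle minus fat, for each gene with the values as deposited (circles), quantile normalized (squares) and scaled by median of ratios (triangles). MCCC2, ECHDC1, ACSS3, ALDH6A1 and IVD lie left of 0 under all 3, the last 2 at -0.11 and -0.06 under median of ratios, ACAT1 lies right of 0, and ACADSB and MMUT cross it.

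MCCC2 and its partner subunit MCCC1 differed in opposite directions between the tissues. MCCC1 measured 19.6, 13.9 and 15.6 FPKM in LBF, 10.2, 11.9 and 10.5 FPKM in HBF, 37.4, 91.6 and 19.4 FPKM in LIMF and 40.9, 33.5 and 32.6 FPKM in HIMF. It was called higher in muscle, at 1.51 ± 0.29 (SE) with an adjusted p of 0.000469 by limma, and at 1.99 and 2.55 under quantile normalization and median-of-ratios scaling. The ratio of MCCC2 to MCCC1 within a library does not depend on its scale. The LBF ratios were 4.33, 6.89 and 4.32, and the HBF ratios were 3.07, 4.05 and 3.16. The LIMF ratios were 0.22, 0.27 and 0.62, and the HIMF ratios 0.21, 0.17 and 0.55, so every fat library lay above 1 and every muscle library below 1. The LBF and HBF ratios did not overlap, and the LIMF and HIMF ratios did. The ratio was computed after its values were seen and was not tested. FPKM of 2 genes also rests on the transcript models used for their lengths, which are the same in every library.

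Other subunit pairs showed smaller changes between the tissues. The ratio of PCCA to PCCB was 0.35 to 0.44 in LBF, 0.28 to 0.32 in HBF and 0.16 to 0.28 in muscle, and stayed below 1 in all 12 libraries. The ratio of BCKDHB to BCKDHA was 0.097 to 0.26 in fat and 0.37 to 0.55 in muscle, with LBF replicate 2 at 0.097 and the HBF libraries at 0.10 to 0.12. Of the 36 other genes of the route tested, 8 were called lower and 8 higher in muscle (background 47.1% lower and 9.29% higher), and the split was 3 lower and 14 higher under median-of-ratios scaling (background 26.4% lower and 21.4% higher) and 6 lower and 10 higher under quantile normalization (background 22.4% lower and 20% higher). The sign was below 0 under all 3 scalings for 10 of the 36 genes, above 0 for 13 and mixed for 13. Called lower in muscle under all 3 were 2 genes, AACS at -3.34, -2.33 and -2.40 (as deposited, median of ratios, quantile) and BCAT1, the cytosolic aminotransferase, at -3.76, -2.95 and -2.49. Called higher under all 3 were 8 genes, which were BCKDK, DLD, HADHA, HADHB, MCCC1, SLC7A5, SUCLA2 and SUCLG1. SUCLA2, at 2.41, 3.46 and 2.59, and HADHB, at 1.42, 2.47 and 1.55, are examples.

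**Figure D5:**
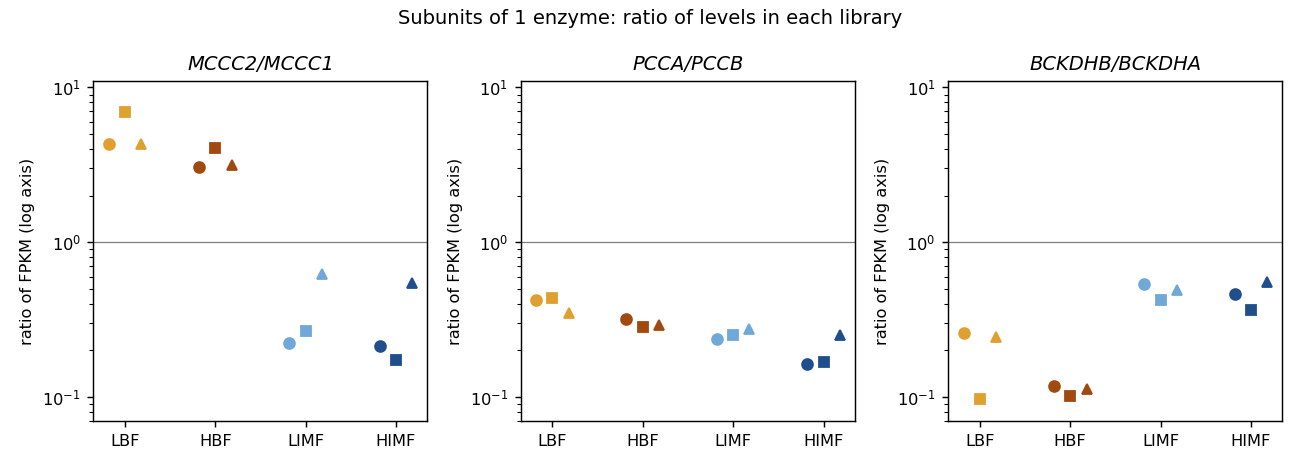
Ratio of the FPKM of 2 subunits of an enzyme in each of the 12 libraries on a log axis, with the line at 1. MCCC2/MCCC1 runs from 3.07 to 6.89 in fat and from 0.17 to 0.62 in muscle, while PCCA/PCCB and BCKDHB/BCKDHA stay below 1 in every library.

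Finally, likeness of pattern was measured as Pearson's r of log2(FPKM + 0.1) over the 12 libraries after the mean of each tissue was subtracted. These values are descriptions, since the genes share libraries, tissue pieces and the fat groups that chose 7 of them. Among the 28 pairs of the 8 genes r ran from 0.28, between ACAT1 and MCCC2, to 0.97, between ACADSB and ECHDC1. ALDH6A1 and ACSS3 were closest to each other at 0.90, MCCC2 was closest to ALDH6A1 at 0.89, and ACAT1 to ECHDC1 at 0.88. IVD was closest to ACADSB at 0.83 and MMUT to MCCC2 at 0.79. Over 8728 genes with a mean above 1 FPKM in both tissues, the 5 with the highest mean r to the 8 genes were GOT2 (0.84), GCDH (0.83), AACS (0.82), UQCRC2 (0.82) and IDH3B (0.81), of which the study's fat lists held GCDH and AACS. GOT2 measured 71.1 to 87.5 FPKM in LBF, 42.3 to 45.1 FPKM in HBF, 227.3 to 421.3 FPKM in LIMF and 210.5 to 350.5 FPKM in HIMF.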

How the data were processed

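RNA-Seq of 6 back fat and 6 LD muscle libraries, 3 per group, was read from a table of 31903 Ensembl identifiers. The authors cleaned reads with fastp, mapped them with HISAT2 to the pig genome Sscrofa11.1, and deposited FPKM values computed with Cufflinks 2.2.1. Their own test used DESeq2 1.25.9. Counts were not used here, so the depth behind a value is not given. The 7 identifiers on 2 rows were summed.

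Values were log2-transformed after 0.1 was added, and genes at a mean of 0.05 FPKM or less were left out. Groups were compared with limma 3.58.1 in R 4.3.3 (lmFit, eBayes with trend), with Benjamini-Hochberg adjustment. This scale understates the change of low genes. Calls required an adjusted p under 0.01 and a difference of 1 or more on the log2 scale in either direction. The contrast of the high-low difference between tissues required an adjusted p under 0.05. Single genes had two-sided exact permutation tests. The limma p-values set a difference of group means against the spread between libraries, and the exact p-values count relabellings. The fit was tested on simulated data. Alternatives changed the pseudocount, filter, scaling, block, trend, call limits and libraries.

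The genes and lists were chosen with earlier results of these data known. Named were the 8 genes, up to 3 others per step of the route, and the 5 genes most like them. MMUT was placed by its NCBI gene number, under the symbol MUT. ACAD8 and the muscle marker MYH1 were not analysed here. Values of 1 gene of the route and 1 muscle marker are not reported here.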

Additional observations from a re-analysis of the deposited data

How the results depend on the processing

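In fat the 8 genes kept their direction under every alternative run, with 0 genes called except for 0 to 2 when a library was left out. With all 12 libraries in 1 fit, 7 of the 8 genes stayed lower at an unadjusted p under 0.05 in fat, where 3.65% of all genes were lower. The exception was ACAT1, whose adjusted p by limma was 0.483. In muscle, genes called numbered 1 with all 12 libraries in 1 fit and 0 to 5 when a library was left out. Then 0 to 1 of the 8 genes were lower and 0 to 2 higher at an unadjusted p under 0.05. Of all genes 1.15% to 4.53% were lower in these fits, and 9.44% were higher without LIMF replicate 3, where the 2 were higher. The sign turned for ACAT1 under quantile normalization (0.052) and ECHDC1 at equal total FPKM (-0.10). With a library left out, muscle differences ran from -0.26 to 0.59 for ECHDC1, -0.51 to 0.14 for IVD, -0.39 to 0.30 for ACADSB, -0.43 to 0.74 for ACAT1 and -0.29 to 0.077 for MMUT. Between tissues, 5864 genes were called at a pseudocount of 1. Under median-of-ratios scaling 3 of the 8 genes were lower and 3 higher at an unadjusted p under 0.05, where 40.1% of all genes were lower and 34.3% higher, with ACADSB at 0.80 and MMUT at 0.51, and under quantile normalization 1 was higher (34.2% of all genes) and ACADSB was at 0.089. With a library left out 0 to 1 were higher. For the contrast of the high-low difference between tissues, 1 gene passed at a pseudocount of 1 or 0.01, 11 without a filter and 2 without trend. With a library left out 0 to 118 passed in this contrast. Then 1 to 5 of the 8 genes were lower at an unadjusted p under 0.05, where 3.49% to 8.43% of all genes were lower, and ALDH6A1 ran from -0.69 to 0.046. For these changes of scaling, filter and pseudocount the cause was not tested. The pathway counts under other settings were chosen after seeing the data.

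Same-numbered libraries of the fat groups had correlations of their deviations of 0.061, 0.14 and 0.034, and those of the muscle groups -0.058, 0.011 and -0.026. Across tissues they were 0.129, 0.169 and 0.048 for LBF with LIMF and -0.061, -0.073 and -0.053 for HBF with HIMF. The numbers were not taken as pairs, since in no set did every pair exceed 0.1, and whether libraries of the 2 tissues share pigs is not given by the labels. With the replicate number as a block, 0 genes were called in fat, 0 in muscle and 0 in the contrast of the high-low difference between tissues. Between muscle and fat 9000 were called, and no call of the 8 genes changed. With 3 libraries per group, intervals in muscle were wide, and no counts were used that would give the depth.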
